A study of Mus musculus with 15 samples.

Results

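The genes of the MHC class I presentation pathway described here are B2m, H2-K1, H2-D1, Tap1, Tap2, Tapbp, Psmb8, Psmb9, Psmb10 and Nlrc5. They were chosen by symbol, as the rows of the count tables whose gene ID belongs to one of these names, and all 10 were found among the 53379 mouse genes of the tables. All 10 were also among the 14485 genes that passed the low-count filter, Nlrc5 only through its 24 h libraries. Murine T-ALL cells, a T cell acute lymphoblastic leukemia grown in culture, came, per the study's methods, from a tumor of EμSRα-tTA/tet-O-MYC mice on the FVB/N background. In this model a tetracycline-controlled activator, driven by a promoter active in lymphoid cells, keeps a human MYC transgene on until doxycycline is given. PolyA RNA was sequenced from cells at 0 h (the MYC on state) and from cells 2, 4, 8 and 24 h after doxycycline (the MYC off state), with 3 libraries at each time and 15 in all. The study's methods give a PBS mock treatment for the MYC on state, and the labels of the 0 h libraries do not name it. Below, untreated means without doxycycline. Every group carries both transgenes, and no group received doxycycline without them, so an effect of MYC loss and one of doxycycline cannot be told apart. Separate cultures per library are not stated, nor whether the cells are 1 clone. The p-values then cover no more than the spread among these samples, which may be technical.

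MHC class I molecules display peptides from inside the cell to cytotoxic T cells and are read by natural killer cells as a sign of self. A peptide is cut by the proteasome, in which interferon-inducible catalytic subunits can take the place of the constitutive ones, and is carried into the endoplasmic reticulum by the TAP transporter. There tapasin helps to load it onto a heavy chain paired with beta-2-microglobulin. NLRC5 is a transactivator that acts through a complex of RFX, CREB/ATF and NF-Y proteins bound to the promoters of these genes, and interferon acts on many of them through STAT and IRF factors. Tumors of several kinds lower this pathway, which makes them less visible to T cells.

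The letters that such factors are known to bind were searched in RefSeq promoter windows of the GRCm38.p6 build, each holding the 250 bases before and the 50 bases after a start site, on both strands. Of the 10 genes, 8 had a window, and Tap2 and Nlrc5 were not matched. The windows come from the reference genome, not from these cells. Upstream bases of the light chain gene and of a classical heavy chain gene are shown because together they form the class I molecule itself, and a short stretch of the other heavy chain gene is shown because it shares 12 letters with the first. Capitals mark the matches named after them.
B2m, chr2:122147527-122147685, plus strand: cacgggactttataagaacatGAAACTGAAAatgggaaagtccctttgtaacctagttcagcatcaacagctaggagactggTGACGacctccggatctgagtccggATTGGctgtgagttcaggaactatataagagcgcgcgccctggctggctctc
H2-K1, chr17:34000348-34000457, minus strand: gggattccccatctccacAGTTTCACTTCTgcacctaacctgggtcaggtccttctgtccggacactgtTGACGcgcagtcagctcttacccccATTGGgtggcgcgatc
H2-D1, chr17:35262934-35262963, plus strand: atctcctcAGTTTCACTTCTgcacctaacc
In B2m the capitals mark, from left to right, a match to the core of the interferon-stimulated response element (GAAA, any 2 bases, GAAA), a cyclic AMP response half-site (TGACG) and a CCAAT box read on the other strand (CCAAT). In H2-K1 they mark AGTTTCACTTCT, TGACG and CCAAT on the other strand, and in H2-D1 they mark AGTTTCACTTCT. The 12 letters AGTTTCACTTCT, part of the interferon response sequence of class I genes, were picked after the windows had been read. They occurred in 11 of all 32851 windows (0.0335%), and 3 of those belonged to H2-K1, which has windows for 2 start sites, and H2-D1.

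TGACG was found in the windows of 5 of the 8 genes (B2m, H2-K1, Psmb9, Tap1 and H2-D1), and 20.8% of all windows held it. The CCAAT box was found in those 5 and in Tapbp, and 37.4% of all windows held it. Tap1 and Psmb9 lie head to head with 225 bases between their RefSeq start sites, so that their windows share a stretch and the same TGACG and CCAAT letters. The response element core was in the B2m window (3.44% of all windows) and the gamma-activated site TTCNNNGAA in the Psmb8 window (8.3%). The E-box CACGTG, a sequence that MYC and its partner MAX can bind, was in the Psmb10 window, and 7.15% of all windows held it. These matches describe letters in the reference and are not bound sites.

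All 10 genes are annotated as protein-coding, and their positions are those of GRCm38 (mm10, GENCODE M21). B2m (ENSMUSG00000060802.8) lies on chromosome 2 at 122147686 to 122153083 on the plus strand. Chromosome 8 holds Psmb10 (ENSMUSG00000031897.9) at 105935735 to 105938444 on the minus strand and Nlrc5 (ENSMUSG00000074151.13) at 94434356 to 94527272 on the plus strand. The other 7 lie in or beside the MHC on chromosome 17: Tapbp (ENSMUSG00000024308.14) at 33915899 to 33929292 on the plus strand, H2-K1 (ENSMUSG00000061232.15) at 33996017 to 34000347 on the minus strand, Psmb9 (ENSMUSG00000096727.2) at 34181987 to 34187764 on the minus strand, Tap1 (ENSMUSG00000037321.17) at 34187553 to 34197225 on the plus strand, Psmb8 (ENSMUSG00000024338.14) at 34197721 to 34201454 on the plus strand, Tap2 (ENSMUSG00000024339.12) at 34203527 to 34216321 on the plus strand and H2-D1 (ENSMUSG00000073411.11) at 35262730 to 35267499 on the plus strand.

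Depth was even, at 25852711 to 27102318 counts per library with a median of 26672358, and the 3 counts that a 0 allows for equal 0.111 to 0.116 CPM, the counts scaled to a common library total. Levels below are CPM on library totals scaled by TMM unless TPM is named. The MYC transgene had a mean of 2023 CPM in the untreated cells and of 24.8, 9.41, 5.58 and 3.29 CPM in the 2, 4, 8 and 24 h cells, which is the order of the labels. Of 11 T cell markers, all above the low-count filter, the summed level was 10870 to 11020 CPM at 0 h and 14640 to 16080 at 24 h. Of markers of other cells, 6 for B cells summed to at most 0.93 CPM in a library. The sum of 5 erythroid markers was 0.396 to 0.468 CPM at 0 h and 0.507 to 0.773 at 24 h. The sums of 3 further lists were also higher at 24 h than at 0 h. They went from 10.9 to 13.03 CPM up to 25.3 to 32.6 CPM for 12 myeloid and dendritic cell markers, from 4.33 to 5.19 up to 52.97 to 94.8 for 6 NK cell markers and from 55.4 to 58.5 up to 117 to 139 for 6 fibroblast and endothelial markers. Lyz2, Itgax, Cd14, S100a8 and S100a9 of the first, Ncr1 and Klrd1 of the second and Dcn, Pdgfra and Cdh5 of the third were at 0 CPM at 0 h and at 24 h. The part of these cells in the results was not tested. One library, 24 h replicate 3, stood apart from the other 24 h libraries (chi-square over degrees of freedom of 77.7 and 85.4, against 2.8 to 16.5 in the other pairs within a time), and values without it are given where it touches a result. In a bulk sample, fewer cells of a kind and less RNA per cell cannot be told apart.

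Relative to the rest of each library, most of these genes rose after 2 h, 7 of them by 8 h. These levels do not show a change in RNA per cell. Calls rest on edgeR's quasi-likelihood test over all tested genes at a false discovery rate of 0.01 (Benjamini-Hochberg), and the comparisons with 0 h share the 0 h libraries. At 2 h none of the 10 genes was called higher (6.6% of all tested genes were) and only Tap2 was called lower (8.59%). H2-D1 and Psmb9 were called higher at 4 h, where 18.1% of all genes were, and Psmb10 lower (19.9%). At 8 h the count was 7 higher (25.3% of all genes) and 1 lower (25.1%), and at 24 h it was 8 higher (30.7%) and none lower (28.1%). The median log2 fold change of the 10 genes was −0.10, 0.24, 0.45 and 0.87 in the order of the 4 times, beside 0.01, 0.08, 0.09 and 0.07 over all tested genes. Since Nlrc5 passed the filter only through the group in which it was high, it is left out in a second reading: the medians of the other 9 were −0.02, 0.25, 0.47 and 0.73, and 7 of these 9 were higher at 24 h. These 9 changed over the time course in the test of the 4 times together, as did 74.2% of all tested genes. Without 24 h replicate 3 the count at 24 h was again 8 higher and none lower. With totals of the libraries replacing TMM the median of all genes moved from 0.09 to 0.19 at 8 h and from 0.07 to 0.35 at 24 h, and with upper-quartile factors to 0.24 and 0.22, so that each log2 value below carries a shift of that size. The count of these genes called higher at 24 h was then 9 and 8. Each of these counts of 8 and 9 includes Nlrc5.

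**Figure D1:**
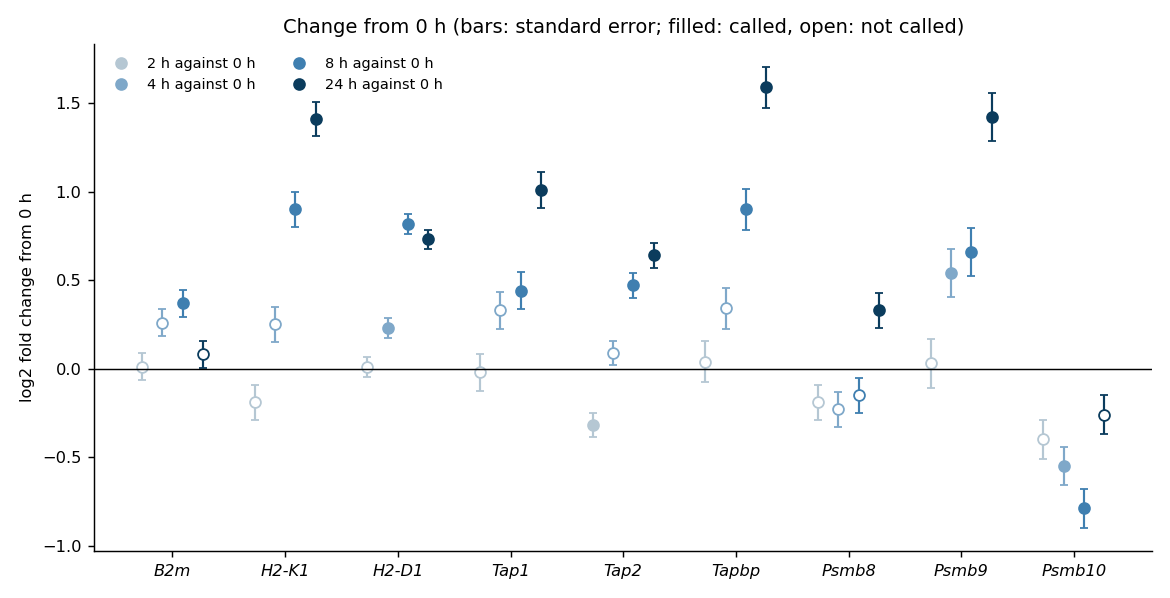
Log2 fold change from 0 h (vertical axis) of 9 of the genes (horizontal axis) at 2, 4, 8 and 24 h from edgeR, with standard errors as bars; filled points were called at an adjusted p under 0.01 and open points were not. H2-K1, Tapbp and Psmb9 reach 1.41, 1.59 and 1.42 at 24 h, B2m returns to 0.08, and Psmb10 is lowest at 8 h with −0.79.

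H2-K1 and H2-D1 encode the classical heavy chains, the peptide-presenting subunits. The untreated libraries gave 16.2, 15.7 and 16.1 CPM of H2-K1, the 2 h libraries 14.2, 14.0 and 13.9, the 4 h libraries 19.2, 16.8 and 21.1, the 8 h libraries 26.8, 31.6 and 31.2 and the 24 h libraries 39.6, 40.8 and 47.6. Levels at 8 h and 24 h lay above every library of the first 3 times. The rise from 0 h was 1.87-fold at 8 h (log2 fold change 0.90, standard error 0.0975, edgeR adjusted p = 9.43e-07) and 2.66-fold at 24 h (log2 fold change 1.41, standard error 0.0973, edgeR adjusted p = 3.61e-09). Without 24 h replicate 3, the highest 24 h library for this gene, the log2 fold change at 24 h was 1.33 (edgeR adjusted p = 1.27e-11).

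H2-D1 stood at 114, 104 and 106 CPM in the untreated libraries, at 108, 107 and 112 in those of 2 h, at 126, 126 and 129 in those of 4 h, at 186, 194 and 193 in those of 8 h and at 179, 187 and 173 in those of 24 h. On TMM-scaled totals H2-D1 had nearly its whole rise by 8 h, and its 8 h and 24 h libraries overlapped. It stood 1.77-fold above 0 h at 8 h (log2 fold change 0.82, standard error 0.0565, edgeR adjusted p = 5.13e-09) and 1.66-fold above at 24 h (log2 fold change 0.73, standard error 0.0564, edgeR adjusted p = 1.32e-08). On library totals its levels at 8 h and 24 h were 190% and 201% of 0 h, and in TPM 181% and 212%. The smaller call at 4 h (log2 fold change 0.23, standard error 0.0564, edgeR adjusted p = 0.00293) was not firm: it was lost in 10 of 24 alternatives, among them leaving out 0 h replicate 2 or 3, 2 h replicate 3, or any 4 h or 8 h library, with an adjusted p from 0.0153 to 0.0453. In the last interval, 24 h against 8 h, H2-K1 had a log2 fold change of 0.51 (standard error 0.0938, edgeR adjusted p = 0.000383) and H2-D1 one of −0.09 (standard error 0.0558, edgeR adjusted p = 0.200). The difference between the genes was not tested.

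B2m encodes beta-2-microglobulin, the light chain that all class I heavy chains need. For B2m the untreated libraries gave 172, 171 and 154 CPM, the 2 h libraries 164, 164 and 172, the 4 h libraries 205, 206 and 184, the 8 h libraries 198, 221 and 222 and the 24 h libraries 185, 182 and 157. The 8 h libraries lay above those of 0 h, and the 24 h libraries overlapped them. B2m was called higher at 8 h (log2 fold change 0.37, standard error 0.0771, edgeR adjusted p = 0.0006796) and lower at 24 h than at 8 h (log2 fold change −0.29, standard error 0.0769, edgeR adjusted p = 0.00562), while at 24 h against 0 h it was not called (log2 fold change 0.08, standard error 0.07701, edgeR adjusted p = 0.369). The 8 h call was lost without 8 h replicate 2 or 3 (edgeR adjusted p = 0.0124 and 0.0128). The fall after 8 h was lost with library totals in place of TMM (log2 fold change −0.12, edgeR adjusted p = 0.179), in a fit of the 8 h and 24 h libraries alone (adjusted p = 0.0398), and without 2 h replicate 3, 4 h replicate 2, 8 h replicate 2 or 8 h replicate 3 (adjusted p = 0.0114, 0.0105, 0.0329 and 0.0354). With library totals B2m was called higher at 24 h than at 0 h (log2 fold change 0.35, edgeR adjusted p = 0.000571).

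**Figure D2:**
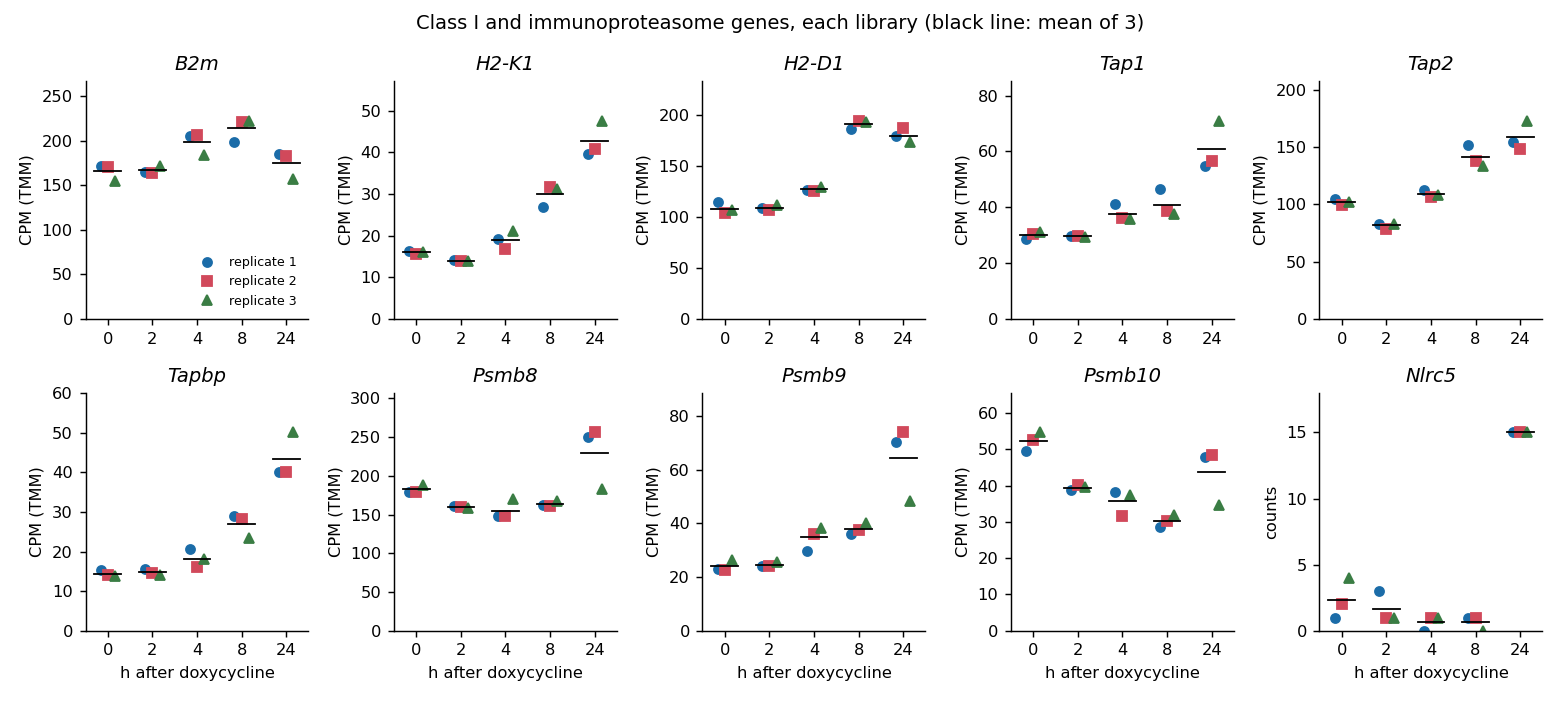
Level of each gene (vertical axes, CPM on TMM-scaled totals, counts for Nlrc5, each axis from 0) in each library against hours after doxycycline (horizontal axes, not to scale); points are libraries by replicate number and black lines are means of 3. H2-K1 goes from a mean of 16.01 to 42.7 CPM and Tapbp from 14.4 to 43.4, Psmb10 dips to 30.2 CPM at 8 h, and 24 h replicate 3 lies below the other 24 h libraries for the 3 Psmb genes and above them for Tap1, Tap2 and Tapbp.

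H2-K1 and H2-D1 held only a small share of the heavy chain counts. On the mm10 annotation 49.7% of the counts of 19 listed heavy chain genes at 0 h fell on H2-Q2 and 31.9% on H2-Q1, both nonclassical genes of the Q region, against 2.78% on H2-D1 and 0.411% on H2-K1. Per length, H2-Q2 stood at 2329 TPM and H2-Q1 at 1138 TPM at 0 h, while H2-D1 stood at 110 and H2-K1 at 16.1. FVB/N mice carry another MHC haplotype than the strain of the reference genome, and heavy chain genes are near-identical in long stretches: of all 50-base windows of their annotated transcripts, 12.8% in H2-D1, 9.63% in H2-K1, 14.96% in H2-Q1 and 16.1% in H2-Q2 also occur in another gene. Which heavy chain gene of these cells a count came from is therefore uncertain for each of these names, and was not tested.

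The sum over the 19 heavy chain genes does not depend on how reads were split among them, as long as they stayed within the 19. In the untreated cells it was 3894 ± 73.6 CPM (SD, n = 3 as in each later time), and after doxycycline 3508 ± 53.3, 4718 ± 178, 6993 ± 111 and 7010 ± 652 in the order of the times. The 8 h and 24 h sums both stood 1.80-fold above 0 h. On library totals they stood 1.94-fold and 2.18-fold above, so whether the sum rose after 8 h depends on the scale. No library overlapped between 0 h and any later time (exact two-sided permutation p = 0.1 for each, the smallest that 3 against 3 libraries allow). H2-K1 and H2-D1 summed stood 1.78-fold above 0 h at 8 h and 1.79-fold above at 24 h (1.92-fold and 2.17-fold on library totals). As a share of all heavy chain counts the pair stood at 3.19% at 0 h and 3.19% at 24 h.

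Of 23 other class I and class I-like genes listed, 22 were found and 17 tested, and 12 were higher at 24 h than at 0 h and 1 lower (all genes 30.7% and 28.1%), with a median log2 fold change of 0.94. H2-Q1 and H2-Q2, named for their share of the counts, were among them: H2-Q1 (1.09, edgeR adjusted p = 8.95e-10) and H2-Q2 (0.88, adjusted p = 1.23e-07) had reached 0.98 and 0.90 by 8 h. The largest called rises at 24 h were those of Cd1d2 (3.23, from 0.185 to 1.77 CPM), H2-K2 (1.74), H2-Q6 (1.40) and H2-T23 (1.36), which encodes the Qa-1 molecule that natural killer cells read. Cd1d2 passed the low-count filter only through later libraries, in which it was higher. Its call, counted among the 12, therefore carries no weight. H2-T3, the thymus leukemia antigen, was the 1 gene that fell, from 253 to 154 CPM (log2 fold change −0.72, edgeR adjusted p = 6.45e-09). With library totals, upper-quartile factors or without 24 h replicate 3, the count at 24 h was again 12 higher and 1 lower.

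**Figure D3:**
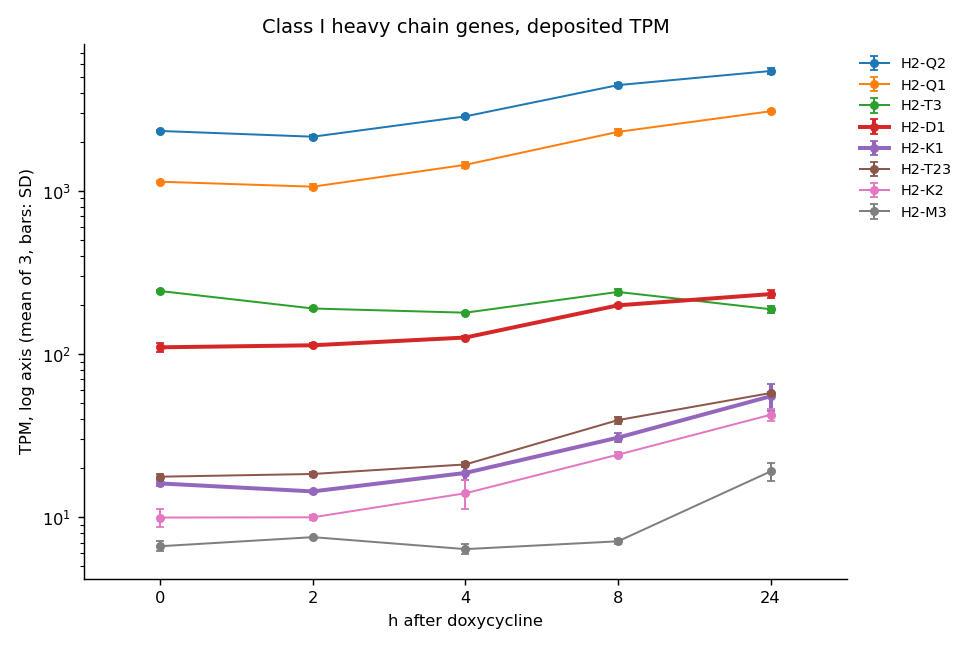
Deposited TPM (vertical axis, log scale, mean of 3 libraries with SD bars) of 8 heavy chain genes against hours after doxycycline (horizontal axis, not to scale). H2-Q2 and H2-Q1 lie highest at every time, 2329 and 1138 TPM at 0 h, H2-T3 falls to 188 TPM at 24 h, and H2-K1 rises from 16.1 to 55.1 TPM.

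Tap1 and Tap2 encode the subunits of the peptide transporter. The untreated libraries gave 28.7, 30.3 and 31.3 CPM of Tap1, the 2 h libraries 29.9, 29.9 and 29.4, the 4 h libraries 41.2, 36.3 and 35.7, the 8 h libraries 46.5, 38.7 and 37.5 and the 24 h libraries 54.8, 56.6 and 70.99. Tap2 stood at 105, 99.1 and 102 CPM in the untreated libraries, at 83.2, 78.6 and 83.3 in those of 2 h, at 112, 106 and 108 in those of 4 h, at 152, 138 and 134 in those of 8 h and at 154, 148 and 173 in those of 24 h. For Tap1 the 2 h libraries overlapped those of 0 h and all later ones lay above, whereas for Tap2 the 2 h libraries lay below those of 0 h and all later ones above. Tap1 stood 1.36-fold above 0 h at 8 h (log2 fold change 0.44, standard error 0.104, edgeR adjusted p = 0.00173) and 2.02-fold above at 24 h (log2 fold change 1.01, standard error 0.104, edgeR adjusted p = 3.59e-07). Tap2 fell at 2 h (log2 fold change −0.32, standard error 0.0691, edgeR adjusted p = 0.00299) and was higher at 8 h (log2 fold change 0.47, standard error 0.0688, edgeR adjusted p = 2.48e-05) and at 24 h (log2 fold change 0.64, standard error 0.0688, edgeR adjusted p = 6.77e-07). Per length, Tap2 stood at 70.8 TPM and Tap1 at 14.4 TPM at 0 h.

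The early fall of Tap2 was lost with library totals (edgeR adjusted p = 0.0178), without 0 h replicate 1 or 3 (adjusted p = 0.0173 and 0.0126) and without any single 2 h library (adjusted p from 0.0104 to 0.0206). The Tap1 call at 8 h was lost without 0 h replicate 1 (adjusted p = 0.0107) and without 8 h replicate 1, which had the highest of the 8 h levels (log2 fold change 0.30, adjusted p = 0.0209). Tap1 and Psmb9 share 212 annotated exon bases on opposite strands, and Tap2 shares 165 and 533 with the antisense genes Gm20496 and Gm15821. Whether the counting used strand is not given, so reads in these stretches cannot be told apart.

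Tapbp encodes tapasin, which holds the transporter and the empty class I molecule together. For Tapbp the untreated libraries gave 15.4, 14.1 and 13.7 CPM, the 2 h libraries 15.6, 14.6 and 14.2, the 4 h libraries 20.6, 16.03 and 18.04, the 8 h libraries 28.9, 28.3 and 23.5 and the 24 h libraries 40.1, 40.1 and 50.1. From 4 h on all libraries lay above those of 0 h, and each later time lay above the one before. The rise was 1.87-fold at 8 h (log2 fold change 0.90, standard error 0.115, edgeR adjusted p = 6.09e-06) and 3.01-fold at 24 h (log2 fold change 1.59, standard error 0.115, edgeR adjusted p = 6.33e-09), the largest of the 9 genes other than Nlrc5. Without 24 h replicate 3 it was 1.48 on the log2 scale (edgeR adjusted p = 1.49e-11). Tapbp overlaps Zbtb22 by 149 exon bases on the same strand and Gm19412 by 904 on the other.

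The other genes of peptide loading moved in both directions. Of 8 listed, 4 were higher and 3 lower at 8 h (all genes 25.3% and 25.1%), and 1 was higher and 2 were lower at 24 h (all genes 30.7% and 28.1%), with a median log2 fold change of −0.05 at 24 h. The 1 that was higher at 24 h was Tapbpl, which encodes the tapasin-related protein TAPBPR (from 10.1 to 32.5 CPM, log2 fold change 1.69, edgeR adjusted p = 3.74e-10). Canx, the lectin chaperone calnexin, fell from 820 to 336 CPM (−1.28, adjusted p = 1.03e-10), and Erap1, the aminopeptidase that trims peptides in the endoplasmic reticulum, from 79.1 to 52.1 CPM (−0.60, adjusted p = 1.42e-06). Calr, encoding calreticulin, was higher at 8 h (0.65, adjusted p = 3.24e-05) and stood at 0.05 at 24 h (adjusted p = 0.667). With library totals 4 of these 8 genes were higher and 2 lower, and without 24 h replicate 3 there were 3 and 3.

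Of the inducible subunits of the immunoproteasome, Psmb9 was called from 4 h on, Psmb8 only at 24 h, and Psmb10 was lower at 4 h and 8 h. Psmb9 encodes the subunit that replaces the product of Psmb6. The untreated libraries gave 22.9, 22.8 and 26.3 CPM of Psmb9, the 2 h libraries 24.04, 24.02 and 25.5, the 4 h libraries 29.7, 36.2 and 38.4, the 8 h libraries 36.1, 37.4 and 40.1 and the 24 h libraries 70.5, 73.9 and 48.3. Every library from 4 h on lay above the 0 h libraries, and 24 h replicate 3 was the lowest at 24 h. Psmb9 was higher at 4 h (log2 fold change 0.54, standard error 0.136, edgeR adjusted p = 0.00406), at 8 h (log2 fold change 0.66, standard error 0.136, edgeR adjusted p = 0.000611) and, by 2.68-fold, at 24 h (log2 fold change 1.42, standard error 0.136, edgeR adjusted p = 1.69e-07). Without 24 h replicate 3 the log2 fold change at 24 h was 1.59 (edgeR adjusted p = 7.14e-13). The 4 h call was lost without 0 h replicate 1 or 2, 2 h replicate 3, 4 h replicate 2 or 3, or any single 8 h library (adjusted p from 0.0103 to 0.0420).

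Psmb8 encodes the inducible subunit that replaces the product of Psmb5. Psmb8 stood at 179, 179.5 and 188 CPM in the untreated libraries, at 161, 159.5 and 159 in those of 2 h, at 148, 148 and 169.5 in those of 4 h, at 163, 161 and 168 in those of 8 h and at 250.1, 256 and 183 in those of 24 h. The libraries of 2, 4 and 8 h lay below those of 0 h, none of these differences being called, and 2 of the 3 libraries of 24 h lay above. The 24 h call (log2 fold change 0.33, standard error 0.0988, edgeR adjusted p = 0.00713) was the weakest of the 8: the libraries overlapped, and it was lost in 18 of 24 alternatives, among them DESeq2 (adjusted p = 0.0139), RLE size factors (0.0151) and the fits with any 1 library other than 24 h replicate 3 left out (adjusted p from 0.0124 to 0.0438). Without 24 h replicate 3 the log2 fold change was 0.47 (edgeR adjusted p = 1.75e-07). From 8 h on Psmb8 rose by 0.49 (standard error 0.0990, adjusted p = 0.000861), with no overlap of libraries. Psmb8 shares 498 exon bases with the antisense gene Gm20496, which had 1910 to 3887 counts per library.

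Psmb10, whose product replaces that of Psmb7, was lower in between. For Psmb10 the untreated libraries gave 49.6, 52.5 and 54.7 CPM, the 2 h libraries 38.8, 40.1 and 39.5, the 4 h libraries 38.1, 31.6 and 37.4, the 8 h libraries 28.5, 30.3 and 31.97 and the 24 h libraries 47.8, 48.4 and 34.7. All libraries of every later time lay below the 0 h libraries. Against 0 h it was lower at 4 h (log2 fold change −0.55, standard error 0.1096, edgeR adjusted p = 0.0006401) and at 8 h (log2 fold change −0.79, standard error 0.1103, edgeR adjusted p = 1.53e-05). The step from 4 h to 8 h was not called (log2 fold change −0.24, standard error 0.1107, edgeR adjusted p = 0.139), and the libraries overlapped. At 24 h Psmb10 had risen from its 8 h level (log2 fold change 0.53, standard error 0.110, edgeR adjusted p = 0.00102). At 24 h it was not called against 0 h (log2 fold change −0.26, standard error 0.109, edgeR adjusted p = 0.0446), and its direction there turns with the scale: 83.5% of its 0 h level on TMM-scaled totals, 100.9% on library totals and 105.7% in TPM.

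Because the catalytic positions can hold either subunit, each inducible gene was set against its constitutive counterpart in the same library, as a ratio of TPM that does not depend on library scaling. Psmb8 to Psmb5 was 0.841, 0.771 and 0.817 in the untreated libraries, 0.963, 0.997 and 0.948 in those of 8 h and 1.44, 1.44 and 1.65 in those of 24 h. In the same order Psmb9 to Psmb6 was 0.0513, 0.0482 and 0.0565, then 0.0739, 0.0717 and 0.0750, then 0.164, 0.160 and 0.168. Psmb10 to Psmb7 was 0.422, 0.424 and 0.466, then 0.243, 0.256 and 0.257, then 0.521, 0.514 and 0.574. In each of the 3 ratios all 24 h libraries lay above all 0 h libraries, 24 h replicate 3 being the highest. At 24 h the ratio stood 1.86-fold above 0 h for Psmb8 to Psmb5, 3.16-fold for Psmb9 to Psmb6 and 1.23-fold for Psmb10 to Psmb7 (exact two-sided permutation p = 0.1 for each, the smallest possible here, with 3 ratios compared). At 8 h the last ratio stood at 0.577 of its 0 h value, below in every library. In TPM, Psmb9 remained below Psmb6, at 0.164 of it at 24 h, a value that rests on the annotated lengths (3659 bases for Psmb9). In CPM, which is not scaled by length, the 2 genes stood at 64.2 and 201 at 24 h.

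**Figure D4:**
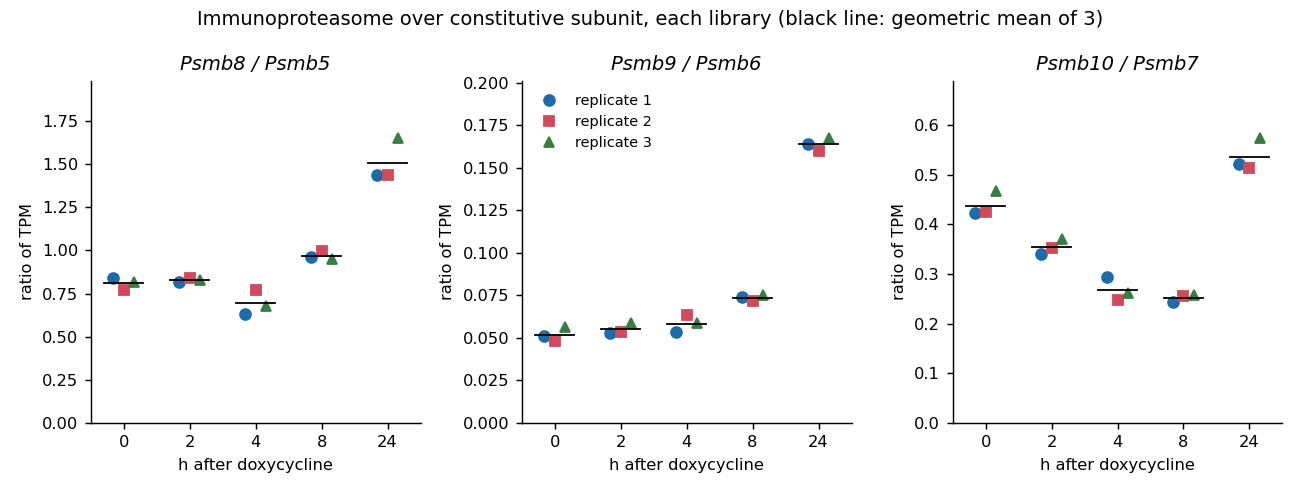
Ratio of TPM of an inducible to its constitutive subunit (vertical axes, from 0) in each library against hours after doxycycline (horizontal axes, not to scale), with black lines at the geometric mean of 3. At 24 h the ratios stand at 1.51, 0.164 and 0.536, above their 0 h values of 0.809, 0.0519 and 0.437, and Psmb10 to Psmb7 is lowest at 8 h with 0.252.

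The constitutive counterparts were lower or not called at 24 h: Psmb5 fell from 74.0 to 50.6 CPM (log2 fold change −0.55, edgeR adjusted p = 0.00235) and Psmb7 from 240 to 165 CPM (−0.54, adjusted p = 0.000853), and Psmb6 stood at −0.23 (adjusted p = 0.115). Neither fall was called with library totals. Of 9 tested proteasome activators and assembly factors, 5 fell by 24 h (28.1% of all genes) and none rose (30.7%, and 1 of the 9 with library totals or without 24 h replicate 3), with a median log2 fold change of −1.01. They were Psme3, the nuclear activator subunit, from 502 to 177 CPM (−1.5), and the assembly chaperones Psmg3 (−1.28), Psmg2 (−1.23), Psmg4 (−1.14) and Psmg1 (−1.01). The interferon-inducible activator subunits Psme1 and Psme2 stood at 0.21 and 0.00 (adjusted p = 0.117 and 0.994). Among 7 cytosolic peptidases, which destroy or shorten peptides before they reach TAP, 4 fell and 1 rose, beside the same shares of all genes. Lap3 fell from 142 to 10.8 CPM (−3.72, adjusted p = 1.40e-12) and Thop1 from 95.2 to 22.2 CPM (−2.10, adjusted p = 2.02e-12), Tpp2 and Dpp8 fell by less (−0.44 and −0.27), and Nrdc rose (0.40). With library totals 2 of the 7 were lower, and without 24 h replicate 3 there were 5.

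Nlrc5, the class I transactivator, had few counts. The untreated libraries held 1, 2 and 4 counts, the 2 h libraries 3, 1 and 1, the 4 h libraries 0, 1 and 1, the 8 h libraries 1, 1 and 0, and the 24 h libraries 15 each. Every 24 h library lay above every other library, at 0.504 CPM on average, or 0.199 TPM. Summed over 3 libraries there were 45 counts at 24 h and 7 at 0 h, a ratio of 5.47 on scaled totals (95% exact interval 2.45 to 14.4, for counting error only). No p-value of this difference is given, since the gene passed the filter on low counts only through the 24 h libraries. For the same reason its call, counted among the 8 higher genes at 24 h, and its intervals carry no weight as a test. Against the 2 counts of 8 h the ratio was 20.2 (5.27 to 172).

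Of 13 listed transcription factors of class I promoters, 6 were higher and 2 lower at 24 h (all genes 30.7% and 28.1%), with a median log2 fold change of −0.01. Irf1, an interferon regulatory factor that binds class I, Tap1 and Psmb9 promoters, was called at every time: its mean was 28.8 CPM in the untreated cells and 46.5, 52.9, 66.3 and 80.4 CPM in the 2, 4, 8 and 24 h cells. The libraries of each later time lay above those of 0 h (log2 fold change 0.69 at 2 h, standard error 0.0652, edgeR adjusted p = 2.02e-06, and 1.48 at 24 h, standard error 0.0653, adjusted p = 1.79e-11). Of the other 5 that rose by 24 h, the largest changes were those of Ciita, the class II transactivator (1.75, from 0.814 to 2.75 CPM), Irf2 (0.93) and Nfyb (0.74). Rfx5, the DNA-binding subunit of the RFX complex, was lower at 2 h (−0.69, adjusted p = 0.00254), was lower again by 8 h (−0.53, adjusted p = 0.005004) and stood at −0.42 at 24 h (adjusted p = 0.0171). The 2 that fell at 24 h were Rfxap (−0.34) and Nfkb1 (−0.24), and neither fall was called with library totals, while without 24 h replicate 3 there were 4 that fell.

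No count of the 6 interferon genes listed (Ifng, Ifnb1, Ifna1, Ifna2, Ifna4 and Ifna5) was present in any library, which allows up to 3 counts in each. Of 11 receptor and signaling genes of the interferon pathway, 9 were higher at 24 h (30.7% of all genes) and none lower (28.1%), with a median log2 fold change of 0.82, and Tyk2 and Socs1 were not called. The largest were Socs3, a feedback inhibitor (4.90, from 0.171 to 5.23 CPM), Ifngr1, the ligand-binding chain of the interferon gamma receptor (2.02, from 50.04 to 203 CPM), Stat2 (1.31) and Jak1 (0.96). Socs3 passed the low-count filter only through later libraries, in which it was higher. Its call, counted among the 9, therefore carries no weight. At 2 h 3 of the 11 were higher (6.6% of all genes) and 1 was lower (8.59%). Jak2, Stat2 and Ifnar1 were higher from 2 h on (0.40, 0.45 and 0.36). The lower gene at 2 h was Socs1, a call kept in 11 of 24 alternatives. The 2 h call of Stat2 was lost in 7 of 24 alternatives and that of Ifnar1 in 3.

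**Figure D5:**
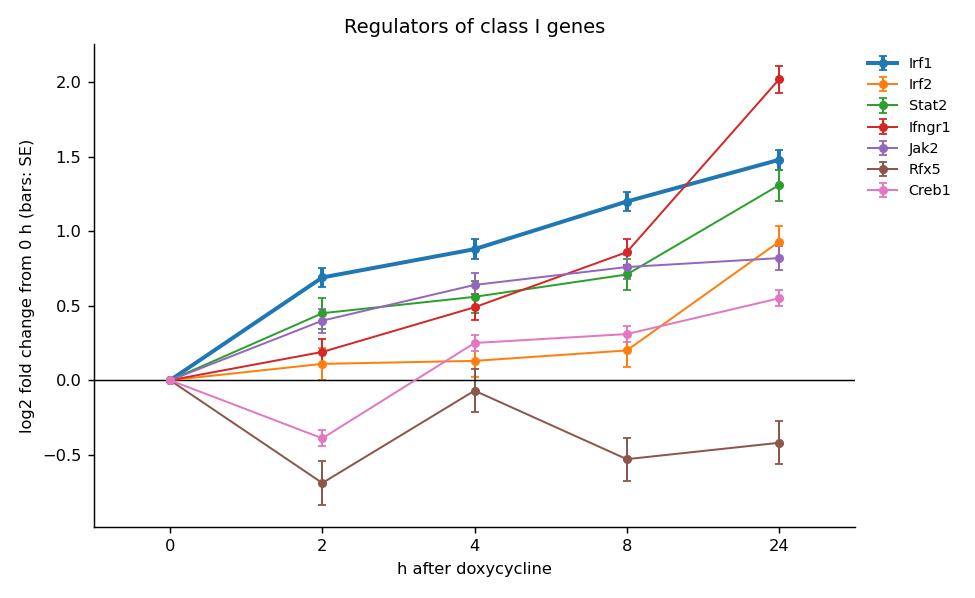
Log2 fold change from 0 h (vertical axis, edgeR, bars are standard errors) of 7 regulators of class I genes against hours after doxycycline (horizontal axis, not to scale). Irf1 is at 0.69 by 2 h and 1.48 at 24 h, Ifngr1 ends highest at 2.02, and Rfx5 lies below 0 at each later time, with −0.07 at 4 h.

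Polycomb repressive complex 2 is known to silence class I genes in some tumors. Of its 8 listed genes 3 were higher and 1 lower at 24 h, where 30.7% and 28.1% of all genes were. Ezh2, the catalytic subunit, rose from 386 to 603 CPM (0.65, edgeR adjusted p = 6.47e-08), Jarid2 (0.78) and Rbbp4 (0.47) rose, and Rbbp7 fell (−0.83). The Rbbp4 call was lost in 12 of 24 alternatives, and with library totals 6 of the 8 genes were higher. Of 6 genes that act in class I turnover at the membrane or in the cell, 5 were tested and 4 rose at 24 h (30.7% of all genes), Susd6 (0.82), Marchf9 (0.81), Tmem127 (0.50) and Wwp2 (0.34), the last of them lost in 12 of 24 alternatives.

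Genes of the class II pathway, typical of antigen-presenting cells, were listed as well. H2-Aa, H2-Ab1, H2-Eb1 and Cd74 each had a mean of at most 0.202 CPM at every time and did not pass the low-count filter. Of the 4 tested class II genes, 3 were higher at 8 h (25.3% of all genes) and 2 at 24 h (30.7%). Their median log2 fold change was 0.74 at 8 h and 0.73 at 24 h, beside 0.47 and 0.73 for the 9 genes without Nlrc5. A rise was thus not particular to the class I genes. The 2 at 24 h were H2-DMa (1.06), which encodes a chain of the peptide exchange factor H2-DM, and H2-Oa (1.61), for its modulator H2-O. Of the 11 T cell markers 9 were higher at 24 h as well (30.7% of all genes), Cd2 (2.62) and Bcl11b (1.69) most, and their part in the class I result was not tested. Among tested markers of other cells, 1 of 4 for myeloid and dendritic cells was higher at 24 h, Itgam (3.00). For NK cells it was 1 of 2, Gzma (4.06), and for fibroblasts and endothelium 1 of 2, Pecam1 (1.15). The 1 tested erythroid marker was not called and none of these markers was lower, while 30.7% of all genes were higher and 28.1% lower.

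By the time between measurements, H2-K1, H2-D1 and Tap2 were higher at 4 h than at 2 h (7.72% of all genes were) and none was lower (13.0%). From 4 h to 8 h H2-K1, H2-D1, Tap2 and Tapbp were higher (5.73% of all genes) and none lower (6.97%). From 8 h to 24 h 7 genes were higher (20.8%), H2-K1, Tap1, Tapbp, Psmb8, Psmb9, Psmb10 and Nlrc5, and B2m was lower (17.3%). Nlrc5 passed the low-count filter only through its 24 h libraries, so its call in this interval carries no weight. When the 8 h and 24 h libraries alone were fitted, 2 were higher, Tapbp and, with the same limit, Nlrc5, and none lower. The calls of H2-K1, Tap1, Psmb8, Psmb9, Psmb10 and B2m were lost in that fit, with an edgeR adjusted p from 0.0132 to 0.0398. The H2-K1 call at 4 h against 2 h was lost without any single 2 h library or 4 h replicate 1 or 3 (edgeR adjusted p from 0.0117 to 0.0399), and that of H2-D1 in 15 of 24 alternatives (adjusted p up to 0.103). The Tapbp call between 4 h and 8 h did not hold without 4 h replicate 2, 8 h replicate 1 or 8 h replicate 2 (adjusted p = 0.0133, 0.0104 and 0.0120).

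Ordered by length-scaled level at 0 h, the genes ran from B2m (505 TPM) through Psmb8 (175), H2-D1 (110), Psmb10 (80.4), Tap2 (70.8), Psmb9 (17.2), H2-K1 (16.1), Tap1 (14.4) and Tapbp (11.5) to Nlrc5 (0.0284), and only Psmb9 and H2-K1 overlapped their neighbor. At 24 h the order was B2m (678 TPM), Psmb8 (279), H2-D1 (233), Tap2 (141), Psmb10 (84.9), Psmb9 (58.1), H2-K1 (55.1), Tapbp (44.5), Tap1 (37.5) and Nlrc5 (0.199). There Psmb8 overlapped H2-D1, and Psmb9, H2-K1 and Tapbp each overlapped the next. Genes of like pattern were sought among 8740 protein-coding genes by Pearson r of log2 CPM over the 15 libraries, which share their time points. Nearest to B2m were Ubl5 (0.946), Rabl2 (0.939) and Calr (0.934). For Psmb8 they were Jpt1 (0.973), Ccdc107 (0.967) and Nt5c (0.951), and for Nlrc5, at its few counts, Dock10 (0.974), P2rx7 (0.962) and Xylt2 (0.961).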

How the data were processed

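PolyA RNA of cultured murine T-ALL cells was sequenced at 0, 2, 4, 8 and 24 h after doxycycline, with 3 libraries per time. Per the study's methods and the submitters' processing notes, the authors trimmed reads with cutadapt (version 1.16), aligned them to mm10 with STAR (version 2.5.4b) and counted them per gene with featureCounts. The strand setting and the annotation release were not given in the sources used. The deposited tables hold raw counts per gene, and FPKM and TPM values that the authors derived from them. The counts and the TPM values gave the results printed here. The FPKM values served only in an alternative form of the subunit ratios, which is not printed.

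The 10 genes and the other lists were chosen with earlier results of these data known. Counts were tested with edgeR (version 4.0.16, R 4.3.3) with TMM factors, the filter filterByExpr and 1 mean per time point over all 15 libraries, and the quasi-likelihood F test gave p-values adjusted by the Benjamini-Hochberg method over 14485 genes. A gene was called at an adjusted p under 0.01. Standard errors were taken from the fold change and the F statistic. The steps were tested on simulated counts. Ratios and sums were compared with exact two-sided permutation tests (Python 3.11.15, scipy 1.17.1), whose smallest p with 3 against 3 libraries is 0.1. Intervals and limits from counts cover counting error only.

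Named were the 10 genes, of every other list up to 4 genes with the largest called change at 24 h against 0 h, each gene where a count was 5 or fewer, and Psmb5, Psmb6, Psmb7, Rfx5, Irf1, Psme1, Psme2, Erap1, Calr, Ciita and Ezh2 whatever their value. H2-Q1, H2-Q2 and the marker genes at 0 counts were named after their values were seen. One listed gene is not reported here. The likeness of genes was Pearson r of log2(CPM + 2) over protein-coding genes that reached 10 CPM at some time. Gene IDs were matched to GENCODE M21 without their version (53274 of 53380). Alternatives were RLE, library totals and upper-quartile factors, no filter, at least 10 counts in every library, DESeq2 (version 1.42.0), a threshold of 0.05, fits of only the time points compared, the replicate number as a block and each library left out in turn. Between any 2 of the times 0, 2, 4 and 8 h, libraries with the same replicate number had a positive r of their deviations in all 3 numbers. It was as low as 0.003 and was largest between 4 h and 8 h (r of 0.541, 0.202 and 0.424). Between 24 h and each other time it was negative for numbers 1 and 3. The range of the same-number r over all pairs of times was −0.599 to 0.541.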

Additional observations from a re-analysis of the deposited data

How the results depend on the processing

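The calls at 24 h against 0 h of H2-K1, H2-D1, Tap1, Tap2, Tapbp and Psmb9 were kept in all alternatives run that gave them a value. The count of the 10 genes lower at 2 h was 1 and became 2 with RLE factors, no filter, an adjusted p under 0.05 or DESeq2, 3 with only the time points compared and 0 with library totals (0 to 3 with 1 library left out). The count higher at 4 h was 2 and became 6 with upper-quartile factors or an adjusted p under 0.05, 4 with only the time points compared and 1 without a filter (0 to 5 with 1 library left out). With only the time points compared, 2 genes were lower at 4 h, 2 lower at 8 h, 2 higher (Tapbp and Nlrc5) and 0 lower at 24 h against 8 h. The count lower at 4 h ranged from 1 to 2 with 1 library left out. With an adjusted p under 0.05, 1 gene was lower at 24 h. The count higher at 4 h against 2 h was 3 and became 6 with upper-quartile factors, an adjusted p under 0.05, only the time points compared or DESeq2 (1 to 6 with 1 library left out). B2m was the 1 gene lower at 24 h against 8 h, and none was with library totals (0 to 1 with 1 library left out). Psmb10 at 24 h stood at 83.5% of 0 h on TMM-scaled totals, 105.7% in TPM and 100.9% on library totals. The causes were not tested.

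With the replicate number as a block, the call of Psmb8 at 24 h (adjusted p = 0.0147) and that of H2-D1 at 4 h against 2 h (adjusted p = 0.0163) were lost, the counts of these genes called higher were 7 and 2, and no other call of the 10 genes was lost. Within replicate numbers the log2 differences of the 3 subunit ratios stayed at 0.90, 1.66 and 0.29 (exact sign-flip p = 0.25, the smallest possible). Between 4 h and 8 h, where the same-number r was largest, the 4 genes called higher were also called with the block, and over all genes 830 and 1010 calls became 702 and 870. In the other pairs among 0, 2, 4 and 8 h the same-number r was positive but lower for each number. Between 24 h and each other time it was negative for numbers 1 and 3. Whether the numbers mark a pairing of the samples is not settled by these values. With the block 829 genes were higher and 1063 lower at 2 h, and 4285 and 3956 at 24 h.

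Over all genes, the counts higher and lower at 24 h against 8 h went from 3014 and 2506 to 4636 and 1596 with library totals, and to 782 and 1151 with only the time points compared. At 2 h they went from 956 and 1244 to 1634 and 1898 with an adjusted p under 0.05, to 2432 and 2794 with only the time points compared, and to 1898 lower with DESeq2 (603 to 1744 higher and 774 to 2167 lower with 1 library left out). At 4 h, 2629 genes were higher, and 1706 and 1698 without 4 h replicate 2 or 3. At 4 h against 2 h, 1118 genes were higher, 2114 with an adjusted p under 0.05, 2253 with only the time points compared and 487 to 2414 with 1 library left out, and the 1882 lower became 2907 without 24 h replicate 3. At 8 h against 4 h the counts of 830 and 1010 became 1522 and 1735 with an adjusted p under 0.05 and ranged over 482 to 1696 and 609 to 2128 with 1 library left out. Nlrc5, at 0 to 15 counts, is limited by depth, and its differences among the first 4 times were not detectable at this depth.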
